A study of Ursus arctos with 12 samples.

Results

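Mitochondrial fusion and fission was followed through 10 genes of the muscle transcriptome of the brown bear (*Ursus arctos*), taken by their symbols from a table of 30249 genes. They were the outer membrane fusion GTPases MFN1 and MFN2, the inner membrane fusion GTPase OPA1, the fission GTPase DNM1L, its outer membrane partners FIS1, MFF, MIEF1 and MIEF2, and the inner membrane proteases OMA1 and YME1L1. All 10 were found and all 10 passed the filter of 30 reads summed over the libraries, as did 17290 genes in all. RNA was taken from vastus lateralis biopsies, that is from a muscle of the thigh, in 6 free-ranging wild bears aged 2 to 3 years, each sampled in winter during hibernation and again in summer during its active period, which gave 6 winter and 6 summer libraries. No treatment or genetic change separated the groups. Season, fasting and inactivity came together in these animals, so they cannot be told apart.

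Muscle mitochondria form a network that is reshaped by opposing reactions. In fusion, mitofusins on neighbouring outer membranes tether and merge them, after which OPA1 joins the inner membranes and keeps the cristae junctions narrow. In fission, the cytosolic dynamin DNM1L (also called DRP1) is recruited by receptors in the outer membrane, assembles into a ring and constricts the organelle. OPA1 is itself cut by YME1L1, which acts in resting mitochondria, and by OMA1, which is switched on by loss of membrane potential and other stress. Much of this control acts on the proteins, through phosphorylation of DNM1L, cleavage of OPA1 and ubiquitination of the mitofusins, and read counts per gene show none of these steps and no splice forms.

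Depth ran from 16742406 to 32140160 reads per library. The winter library of bear 1509 stood apart on the second principal component (at −98.6, the other winter libraries at 6.35 to 23.1), so several results are given with and without it. On the first component (41.5% of the variance) the winter libraries of bears 1511 and 1509 lay nearest to summer. They were at 25.5 and 30.2, and the other winter libraries at 59 to 74.4. Some marker genes of other cell types differed with season, where 19.9% of all genes tested were called lower and 19.6% higher. Of 6 fibroblast markers 4 were lower in winter, and their summed level was 4180 to 11300 CPM (reads scaled to a common library size) in summer against 269 to 1620 CPM in winter. Of 6 endothelial markers 4 were lower and 1 was higher, with sums of 588 to 921 CPM against 396 to 460 CPM. Lower calls were also made for 1 of 5 adipocyte, 2 of 5 macrophage, 1 of 4 smooth muscle and 1 of 5 Schwann cell markers, with summed levels of 297 to 1380, 52.9 to 104, 100 to 159 and 46.6 to 102 CPM in summer and 216 to 459, 39.7 to 68.6, 66.3 to 131 and 42.6 to 156 CPM in winter. For the adipocyte, smooth muscle and Schwann cell markers these calls were close to the share among all genes. LEP, one of the adipocyte markers, was called higher at only 0 to 19 reads per library. The 8 muscle fibre markers, at 108000 to 176000 CPM in summer and 117000 to 156000 CPM in winter, had a higher sum than any other marker list in every library. Of these 8, 2 were called higher and 3 lower, and of the 5 slow fibre and 5 fast fibre markers tested 1 each was lower, ATP2A2 and ATP2A1, with sums of 8350 to 18800 and 29500 to 56400 CPM in summer against 9190 to 15300 and 35700 to 39600 CPM in winter. Among winter libraries, that of bear 1509 held the highest Schwann cell and macrophage sums (156 and 68.6 CPM, medians 62.3 and 56.8 CPM). It held the lowest winter sums of smooth muscle, muscle fibre and fast fibre markers, at 66.3, 117000 and 35700 CPM. With the bear as a block in the model, 5 fibroblast, 3 macrophage, 2 smooth muscle and 2 Schwann cell markers were called lower, and LEP was not called. The part of cell makeup in the results below was not tested, and in bulk RNA fewer cells of a type and less RNA per cell cannot be told apart.

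In winter, 4 of the 10 genes were lower, DNM1L, OMA1, MFN2 and FIS1, and 1 was higher, MIEF2, at an adjusted p below 0.05. Adjusted p-values come from the quasi-likelihood test of edgeR, over all genes tested, except where another tool is given. Among all genes tested, 19.9% were called lower and 19.6% higher, 39.5% together, so a call for 5 of 10 genes is close to the share among genes at large. By the stricter limits of the paper for a differentially expressed gene, an adjusted p below 0.01 with a fold change above 1.3 or below 0.77, DNM1L and OMA1 were lower (12% of all genes) and MIEF2 was higher (12%). MIEF2 passed that limit narrowly (0.00958). Its adjusted p was above 0.01 with the bear as a block (0.0127), in limma voom (0.0141), with library totals (0.0132) and without a filter (0.0131). It was below 0.01 in DESeq2 (0.00143), DESeq2 with the bear as a block (0.00101), the RLE scaling (0.0093) and filterByExpr (0.00734). With a bear left out, it was below 0.01 only without bear 1509 (0.000794). Without bear 1305 the adjusted p was 0.050 for MIEF2 and 0.0269 for OMA1. With the bear as a block in the model, 3 genes were lower (21.2% of all genes) and 1 was higher (19.6%) at an adjusted p below 0.05. The median log2 fold change of the 10 genes was −0.089, beside −0.0021 over all genes tested.

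**Figure D1:**
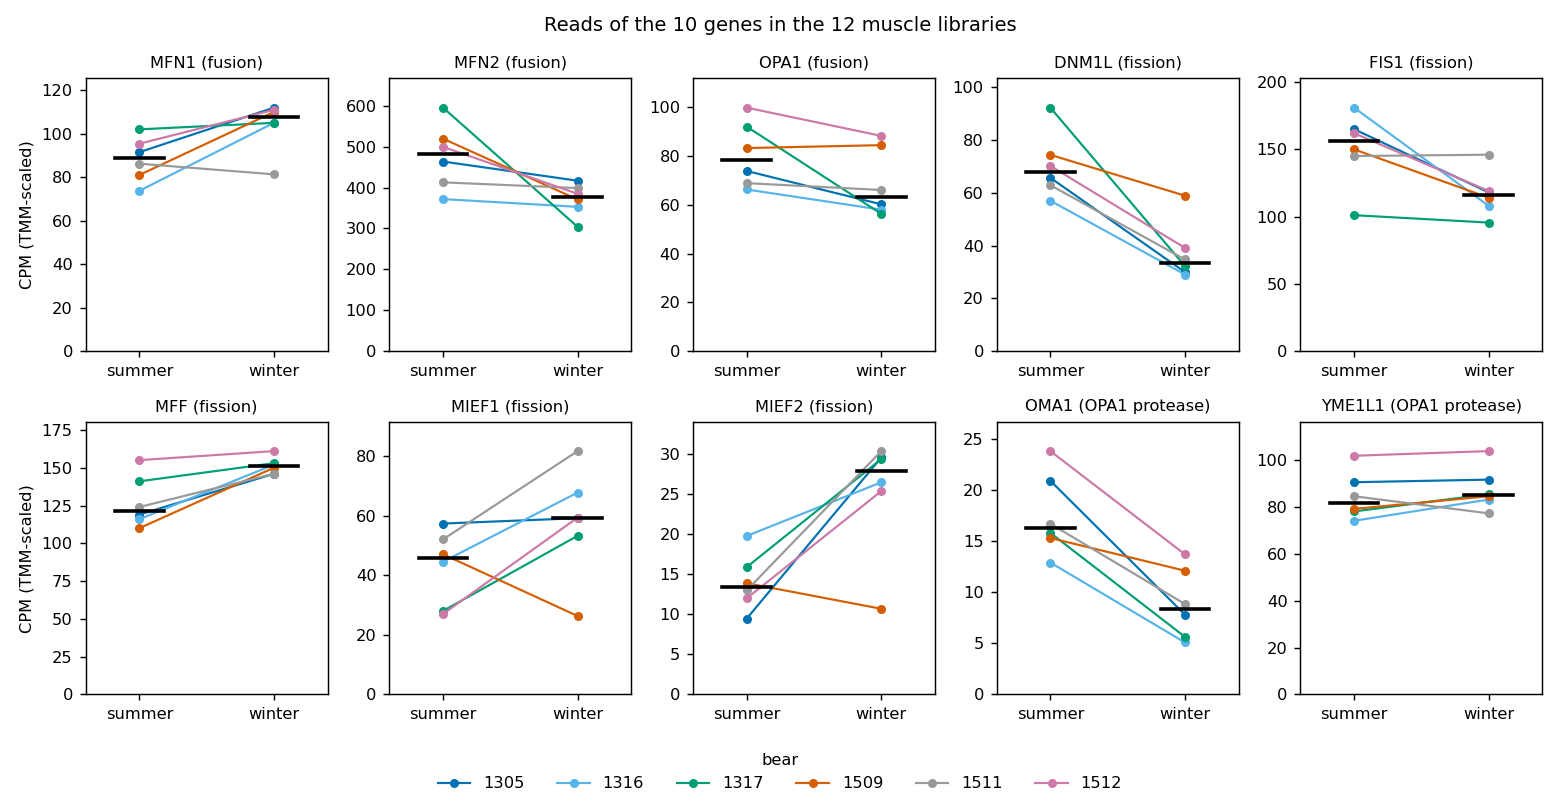
Each panel plots 1 gene, with TMM-scaled CPM on a linear axis from 0, and each line joins the summer and winter libraries of 1 bear. Black bars are medians of 6 libraries. DNM1L and OMA1 fell in every bear, MIEF2 rose in every bear but 1509, and YME1L1 stayed between 74.2 and 104 CPM.

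Among the 5 fission genes of the 10, the largest difference was that of DNM1L itself, the GTPase that divides mitochondria. DNM1L was counted at 57.0 to 92.3 CPM in summer (median 68.0) and at 29.0 to 58.9 CPM in winter (median 33.4). It fell by 47.1%, in 6 of 6 bears (log2 fold change −0.92 with a standard error of 0.17, adjusted p = 0.00101). In 5 winter libraries DNM1L lay below every summer library, and the exception was the winter library of bear 1509, at 58.9 CPM. Single bears differed by −1.52 to −0.34 on the log2 scale, with bear 1317 at the low end and bear 1509 at the high end. Without that winter library the log2 fold change was −1.09 (adjusted p = 4.14e-05). DNM1L was called in each of the 15 alternatives, and 12.4% of the genes tested had a fold change as low or lower.

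The outer membrane partners of DNM1L did not all share its direction. MIEF2 (MiD49), counted at 193 to 780 reads per library, was at 9.47 to 19.8 CPM in summer (median 13.5) and at 10.7 to 30.4 CPM in winter (median 27.9). It rose 1.81-fold (0.85 on the log2 scale with a standard error of 0.23, adjusted p = 0.00958). All winter libraries but that of bear 1509 lay above every summer library, and 5 of 6 bears rose, by 0.42 to 1.64, while bear 1509 differed by −0.38. Without the winter library of bear 1509 the log2 fold change of MIEF2 was 1.01 (adjusted p = 0.000264). Without bear 1305, whose rise was the largest, it was 0.70 and the adjusted p was 0.050, at the threshold.

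MIEF1 (MiD51), the paralog of MIEF2, varied more from bear to bear and was not called. Its levels were 27.0 to 57.3 CPM in summer (median 45.7) and 26.3 to 81.6 CPM in winter (median 59.2), with overlapping seasons. The log2 fold change was 0.44 (95% interval −0.082 to 0.96, adjusted p = 0.166). In 5 of 6 bears MIEF1 was higher in winter, by 0.045 to 1.13, and in bear 1509 it was lower, at −0.83. It was called without the winter library of bear 1509 (0.59, adjusted p = 0.0264) and without both libraries of that bear (0.63, adjusted p = 0.0327), within 0.0264 to 0.351 over the alternatives. On the RefSeq annotation of a later assembly (UrsArc2.0), the span of MIEF1 overlaps that of ATF4, a stress-responsive transcription factor counted at 5102 to 12181 reads per library higher in winter by 0.59 on the log2 scale (adjusted p = 0.00476). Whether reads of these neighbours were kept apart in the annotation used for counting was not tested. DNM1L likewise overlaps YARS2, a mitochondrial tyrosyl-tRNA synthetase, which was not called (log2 fold change 0.15, adjusted p = 0.284).

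MFF, a tail-anchored receptor of DNM1L, was the gene with the smallest spread between winter libraries. It was at 110 to 155 CPM in summer (median 122) and at 146 to 161 CPM in winter (median 151). It was higher in 6 of 6 bears, by 0.057 to 0.45, where 18.4% of all genes were higher in 6 of 6. The log2 fold change of 0.25 (standard error 0.095, 95% interval 0.045 to 0.45) had an adjusted p of 0.0507, just short of a call. DESeq2 (adjusted p = 0.0249), DESeq2 with the bear as a block (0.0356), limma voom (0.0449), the RLE scaling (0.0477), filterByExpr (0.0384) and the fit without bear 1512 (0.0298) called it, within 0.0249 to 0.268 over the alternatives.

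FIS1, a small outer membrane protein tied to fission and to the clearance of mitochondria, was lower in winter. Its levels were 101 to 181 CPM in summer (median 156) and 95.5 to 146 CPM in winter (median 116), and the seasons overlapped. FIS1 fell by 22.6% (−0.37 on the log2 scale with a standard error of 0.14, adjusted p = 0.0458), and 5 of 6 bears were lower, by −0.75 to −0.075, with bear 1511 at 0.016. This call was near the threshold. Leaving out bear 1305, 1316, 1509 or 1512 raised the adjusted p to 0.117, 0.163, 0.101 and 0.113, in that order. The log2 fold change was then −0.36, −0.28, −0.35 and −0.35, so of these only leaving out bear 1316 moved it by much. Without bear 1511 it moved the other way, to −0.45 (adjusted p = 0.03). The call was also lost in limma voom (0.054), without a filter (0.064) and without the winter library of bear 1509 (0.0649).

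Of the fusion genes, MFN2 was the only one called, and MFN1 lay on the opposite side of 0. MFN2, which also tethers mitochondria to the sarcoplasmic reticulum and has a large role in muscle, was at 372 to 596 CPM in summer (median 482) and at 304 to 417 CPM in winter (median 378). MFN2 fell by 22.2% (−0.36 on the log2 scale with a standard error of 0.12, adjusted p = 0.0317), and the 6 bears differed by −0.97 to −0.052. Bear 1317, which had the highest summer and the lowest winter level, gave the largest difference. With the bear as a block MFN2 was not called (adjusted p = 0.0643), nor was it without bear 1317 (−0.24, adjusted p = 0.129), bear 1509 (0.0897) or bear 1512 (0.0773), nor without a filter (0.0517). MFN2 kept its call with only the winter library of bear 1509 left out (−0.36, adjusted p = 0.0438).

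MFN1, which tethers outer membranes for fusion, was at 73.7 to 102 CPM in summer (median 88.8) and at 81.3 to 112 CPM in winter (median 107). Its log2 fold change of 0.23 (standard error 0.10, 95% interval 0.0095 to 0.46) was not called (adjusted p = 0.0896). In 5 winter libraries MFN1 lay above every summer library, and the exception was bear 1511, the only bear in which it was lower (−0.085). Without bear 1511 MFN1 was called (0.29, adjusted p = 0.045), the lowest adjusted p among its alternatives, which ran to 0.391.

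OPA1, the inner membrane fusion GTPase, was at 66.3 to 99.9 CPM in summer (median 78.6) and at 56.3 to 88.3 CPM in winter (median 63.2). In 4 winter libraries it lay below every summer library, yet the winter libraries of bears 1509 and 1512 were at 84.5 and 88.3 CPM, well inside the summer range. The log2 fold change was −0.23 (95% interval −0.54 to 0.078, adjusted p = 0.221), and 5 of 6 bears were lower. Without bear 1317 the log2 fold change of OPA1 was −0.13, and without the winter library of bear 1509 it was −0.29 (adjusted p = 0.115). OPA1 was not called in any alternative (adjusted p 0.115 to 0.527).

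Of the proteases that cut OPA1, OMA1 was lower in winter and YME1L1 was not called. OMA1, the stress-activated metalloprotease, was at 12.9 to 23.8 CPM in summer (median 16.2) and at 5.08 to 13.7 CPM in winter (median 8.32), from 100 to 609 reads per library. It fell by 49.5% (−0.99 on the log2 scale with a standard error of 0.24, adjusted p = 0.00518), and single bears differed by −1.47 to −0.34, all of them lower. As for DNM1L, bear 1509 gave the smallest fall, and 5 winter libraries lay below every summer library, the exception here being bear 1512. OMA1 was called in each of the 15 alternatives (adjusted p up to 0.0269), and its log2 fold change without the winter library of bear 1509 was −1.09 (adjusted p = 0.00307).

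YME1L1, the ATP-dependent protease of the inner membrane, was at 74.2 to 102 CPM in summer (median 82.0) and at 77.4 to 104 CPM in winter (median 85.1). No seasonal difference was detectable (log2 fold change 0.051, standard error 0.10, 95% interval −0.17 to 0.27, adjusted p = 0.716), and single bears lay between −0.13 and 0.17. With library totals in place of TMM scaling the estimate was −0.029 (adjusted p = 0.86), so no direction is given for YME1L1.

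The seasons overlapped by at least 1 library for each of the 10 genes, while 9.12% of all genes had every winter library above every summer library and 8.21% had every one below. DNM1L, OMA1 and MFN2 were lower in 6 of 6 bears, where 19% of all genes were.

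**Figure D2:**
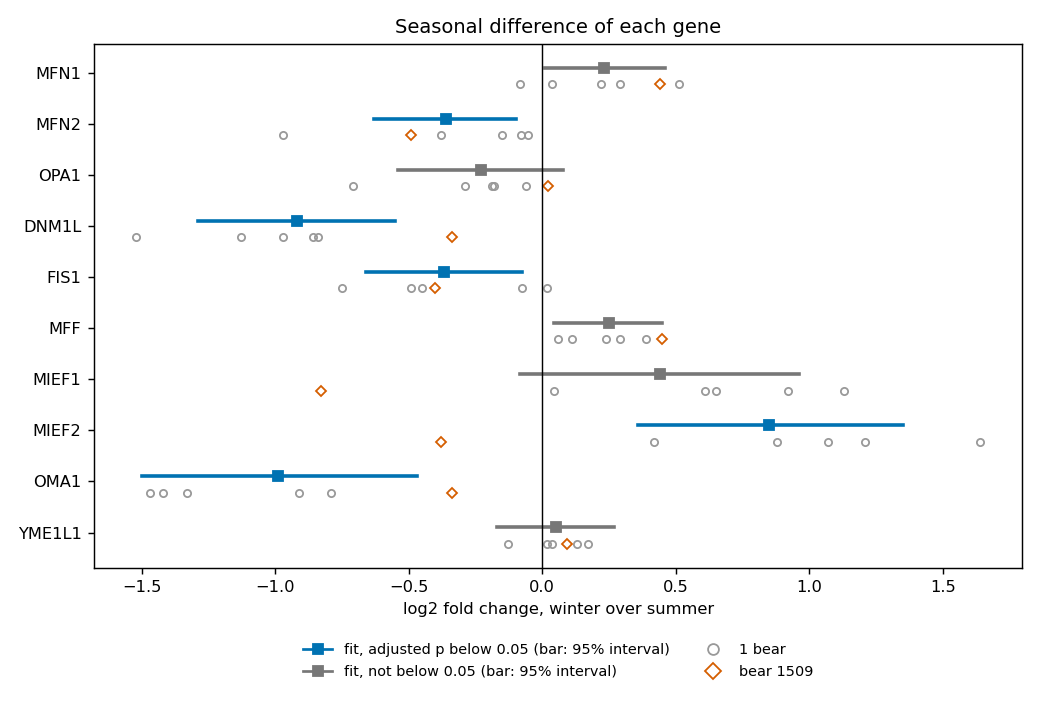
Squares are the fitted log2 fold changes of winter over summer with bars for the 95% interval, blue at an adjusted p below 0.05 and grey otherwise. Open symbols are the 6 bears, with bear 1509 as an orange diamond, which for DNM1L, OMA1, MIEF1 and MIEF2 lies nearer to 0 than the other bears or across it.

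Ratios of genes within a library do not depend on the scaling between libraries, and 4 were compared, chosen for genes that act at the same step. They are ratios of reads and not of molecules, since gene lengths were not used. The OMA1 to YME1L1 log2 ratio went from −2.29 ± 0.16 to −3.38 ± 0.51 between summer and winter (SD, n = 6 bears). It was lower in 6 of 6 bears, by −1.10 ± 0.48 on average, with p = 0.0312 in an exact two-sided permutation test over the signs of the bears, the smallest p that 6 bears allow, and 0.0625 after Benjamini-Hochberg adjustment over the 4 ratios. Without bear 1509, whose change was the smallest (−0.43), the mean difference was −1.23. The MFF to FIS1 log2 ratio went from −0.23 ± 0.40 to 0.39 ± 0.23 (SD, n = 6 bears), higher in 6 of 6 bears by 0.19 to 1.14 (exact permutation p = 0.0312, adjusted 0.0625).

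The MFN2 to MFN1 log2 ratio went from 2.42 ± 0.16 to 1.84 ± 0.25 (SD, n = 6 bears). It was lower in 5 of 6 bears, with bear 1511 at 0.033 (exact permutation p = 0.0625, adjusted 0.0833). The MIEF1 to MIEF2 log2 ratio had no common direction, at 1.58 ± 0.65 and then 1.19 ± 0.22 (SD, n = 6 bears), lower in 3 bears and higher in 3 (exact permutation p = 0.25, adjusted 0.25). Its mean difference of −0.39 was −0.15 without bear 1305, in which it was −1.59. None of the 4 ratios passed an adjusted p of 0.05, which with 6 bears is out of reach unless several ratios take the smallest p together.

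**Figure D3:**
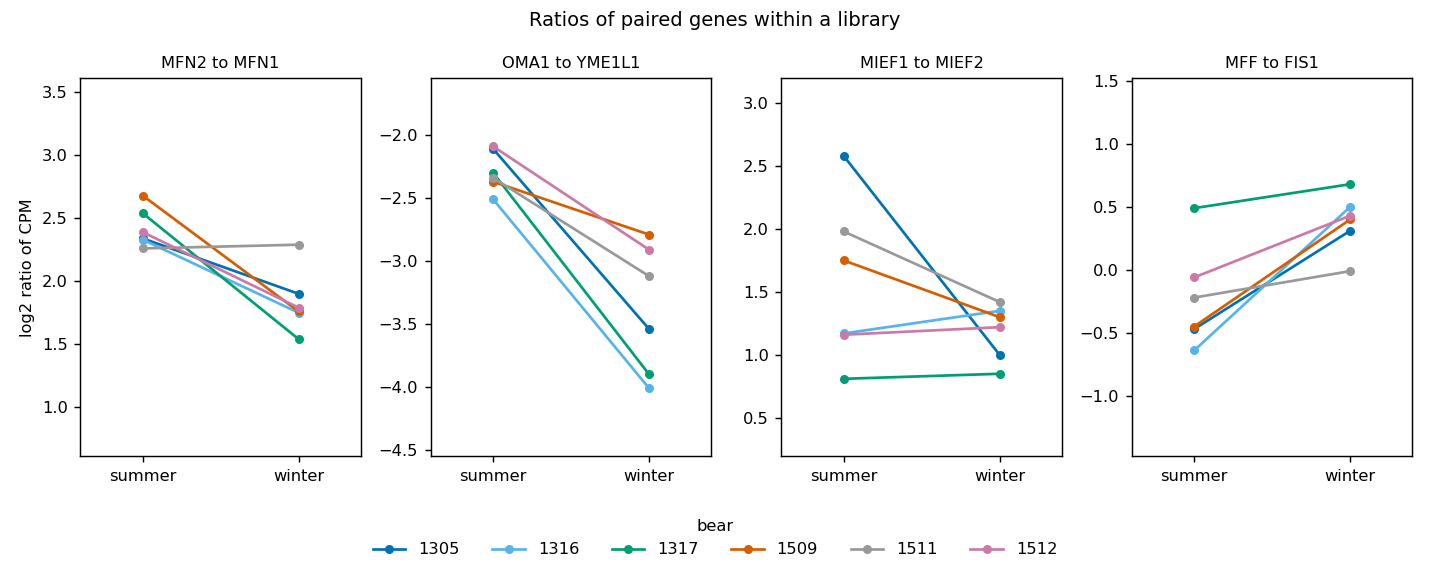
Each panel plots the log2 ratio of the CPM of a pair of genes in summer and winter, with a line for each bear and every panel spanning 3 log2 units. OMA1 to YME1L1 was lower and MFF to FIS1 higher in winter in 6 of 6 bears, MFN2 to MFN1 was lower in 5, and MIEF1 to MIEF2 was lower in 3 and higher in 3.

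Once the season means were removed, some of the genes still varied together over the 12 libraries. Pearson's r of the log2 CPM was 0.804 for OPA1 and OMA1, 0.780 for OPA1 and DNM1L, and 0.572 for DNM1L and OMA1, and without the winter library of bear 1509 it was 0.764, 0.786 and 0.448. Between DNM1L and its outer membrane partners, r was −0.752 for MIEF1, −0.669 for MIEF2, −0.345 for FIS1 and 0.246 for MFF. Over the 11 libraries without the winter library of bear 1509, these became −0.452, −0.0687, −0.498 and 0.426, so the value for MIEF2 rested on that library. These values describe 12 libraries of the same 6 animals, which differed in depth and in the levels of cell type markers. The part of depth and cell makeup in these correlations was not tested. The winter library of bear 1509 lay inside the summer range for DNM1L, OPA1, MIEF2, FIS1, MFF and YME1L1. Of 10344 genes with a symbol and a mean of at least 1 log2 CPM, those whose log2 CPM was most like that of DNM1L, the gene with the lowest adjusted p, were IBTK (r = 0.977), TRIM68 (0.975), MTO1 (0.975), MTUS1 (0.971) and SERAC1 (0.971) over the 12 libraries, season included. Without the winter library of bear 1509 their r lay between 0.970 and 0.983. Their log2 fold changes were −0.70, −1.17, −1.14, −1.41 and −1.0.

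Other genes of the same machinery were taken as lists. Their counts stand beside the 19.9% of all genes called lower and the 19.6% called higher, 39.5% together. The list for cristae junctions held more calls than that share, and the other lists were closer to it. Of 15 further fission factors, 2 were lower and 3 higher, with a median log2 fold change of 0.091. MTFP1 (MTP18), an inner membrane protein that promotes fission, had a larger difference than any of the 10 genes, at only 22 to 631 reads per library. It went from a median of 16.8 CPM in summer to 2.35 CPM in winter, −2.65 on the log2 scale with a standard error of 0.36 (adjusted p = 9.22e-05), and 6 of 6 bears shared the direction. AKAP1, which anchors protein kinase A to the outer membrane, was lower at −0.48 (adjusted p = 0.00800). The ubiquitin ligase MARCH5 was higher at 0.61 (adjusted p = 0.00140), as were SENP5, a SUMO protease, at 0.67 (adjusted p = 0.00617) and SPIRE1, an actin nucleator, at 0.52 (adjusted p = 0.00256).

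Of 11 tested partners of fusion and OPA1 processing, 3 were higher and 2 lower (median −0.039). The prohibitins, which form a common ring in the inner membrane that shapes OPA1 processing, parted. PHB2 was higher at 0.74 (standard error 0.11, adjusted p = 0.000186) and PHB lower at −0.53 (standard error 0.14, adjusted p = 0.00994), each in 6 of 6 bears. STOML2, a scaffold that binds prohibitins and cardiolipin, was lower at −0.66 (adjusted p = 0.000173), and MIGA1 was higher at 0.45 (adjusted p = 0.0134), as was the rhomboid protease PARL at 0.40 (adjusted p = 0.00611). MIGA1 was the one of these 5 whose adjusted p passed 0.05 under an alternative (at most 0.0716).

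The list for cristae junctions, the MICOS complex and its outer membrane contacts held 6 lower and 2 higher genes of 10 tested, with a median of −0.57. MINOS1 (MICOS10), a core MICOS subunit, fell from a median of 300 to 144 CPM (log2 fold change −0.92, adjusted p = 0.000261), and APOOL, a cardiolipin-binding subunit, was lower at −0.88 (adjusted p = 0.000598). CHCHD6, at only 16 to 122 reads per library, was higher at 1.58 (adjusted p = 0.000429), and MTX2, an outer membrane partner, at 0.50 (adjusted p = 0.00516).

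Of 7 genes for the transport of mitochondria along the cytoskeleton 2 were lower. TRAK1, a motor adaptor, was lower at −1.02 (adjusted p = 2.79e-05), and TRAK2 was lower at −0.82 (adjusted p = 0.0312, up to 0.129 over the alternatives). With the bear as a block MYO19, a mitochondrial myosin, was called higher in addition (adjusted p = 0.0364).

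A list of common markers of mitochondrial content was read beside these, with 8 genes tested. Of these, 3 were lower and 1 higher, and the median was −0.32. SDHB, of respiratory complex II, was lower at −0.78 (adjusted p = 0.000470), the chaperonin HSPD1 at −0.68 (adjusted p = 0.000506) and the outer membrane channel VDAC1 at −0.44 (adjusted p = 0.00926), while TOMM20, an import receptor, was higher at 1.24 (adjusted p = 3.79e-06). The summed level of this list was 6010 to 6460 CPM in summer and 3630 to 6070 CPM in winter, lower in 5 of 6 bears. The part of mitochondrial content in the falls of DNM1L and OMA1 was not tested.

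**Figure D4:**
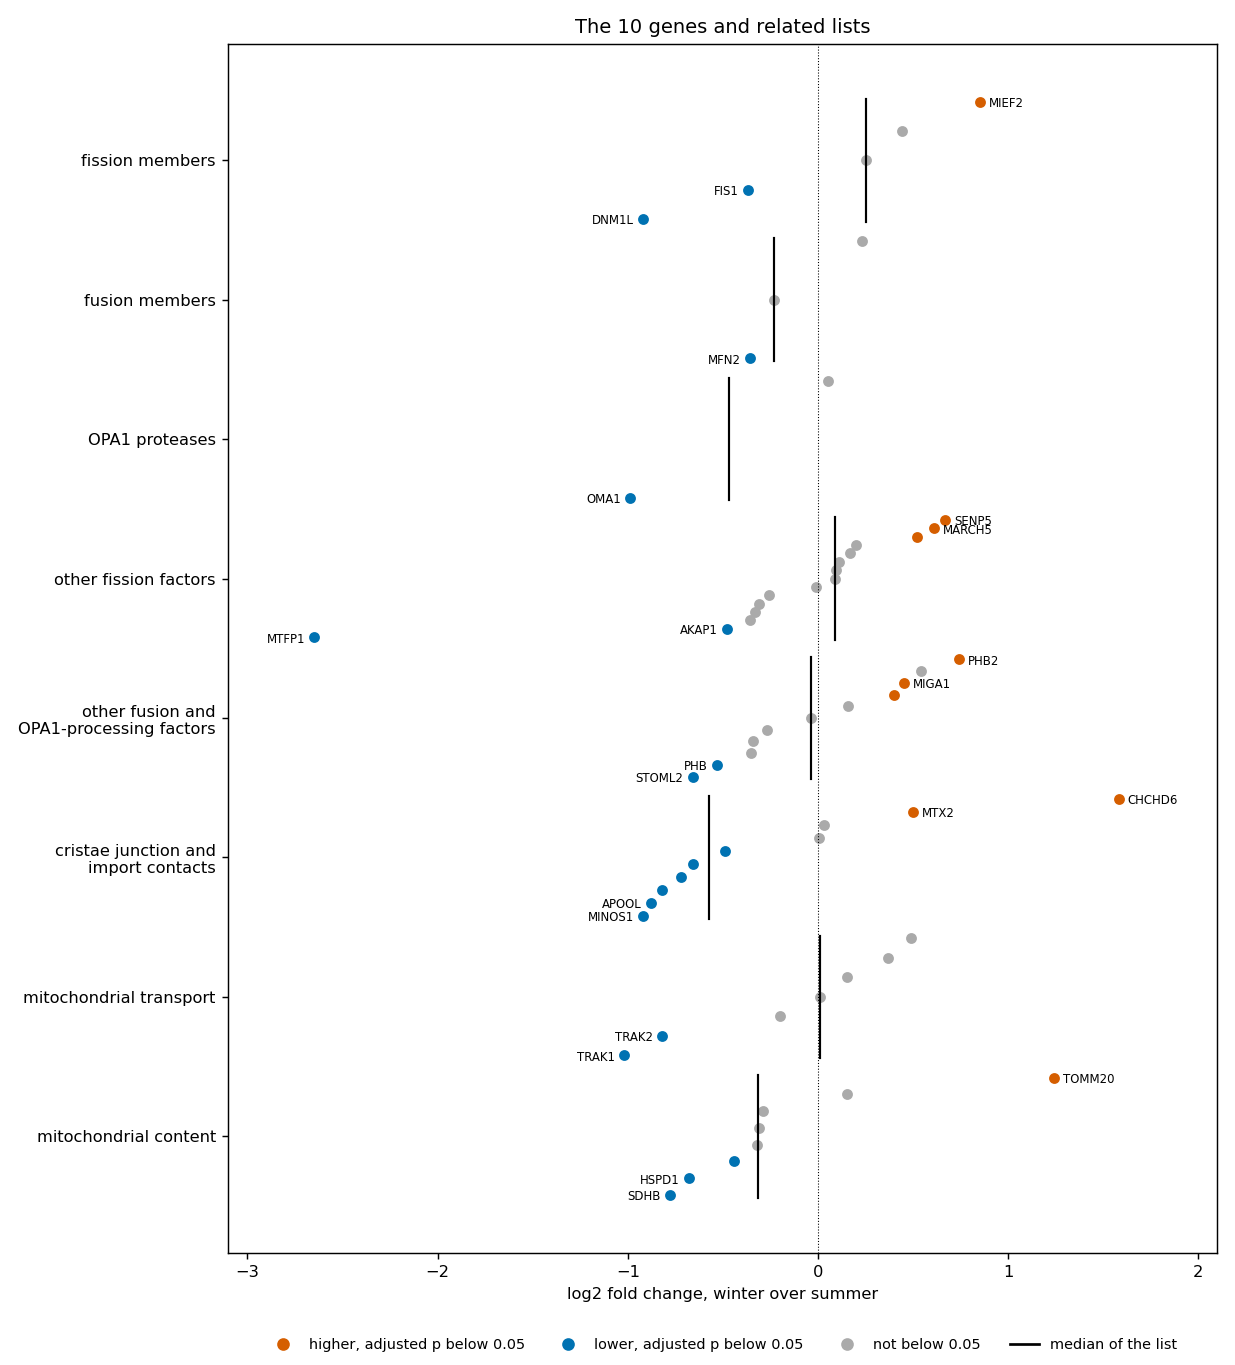
Points are the log2 fold changes of winter over summer of the 10 genes and of the related lists, coloured by their call at an adjusted p below 0.05, with black bars at the list medians. Labels name the genes given in the text by a fixed rule. MTFP1 lies farthest from 0, at −2.65.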

How the data were processed

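The deposited values are raw counts of reads per gene. The authors sequenced strand-specific poly-A libraries as single reads of 50 bases and used TopHat 2.1.1 for alignment to the assembly ASM358476v1 and featureCounts 1.6.2 for counting, with strand taken into account. The deposited counts were not normalized, and totals ran from 16742406 to 32140160 reads per library. The closest pair of libraries within a season still differed by a chi-square of 39 per gene, so none was a copy. The labels do not assign libraries to lanes, so a lane effect was not tested.

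A sum of at least 30 reads over the 12 libraries was required, which 17290 genes met. Counts were scaled by TMM and fitted with glmQLFit and glmQLFTest of edgeR 4.0.16 (R 4.3.3), with season as the only term. Adjusted p is the Benjamini-Hochberg value over all genes tested. Standard errors and 95% intervals were taken from the fold change and its F. Log2 CPM used a prior count of 2. Ratios were tested by exact sign permutation over bears.

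The same bears were sampled in both seasons, by the methods and the animal numbers in the labels. After the season means were subtracted, the winter and summer libraries of a bear correlated at 0.0903 to 0.344 and those of different bears at 0.142 at most. Alternatives were the bear as a replicate block, DESeq2 1.42.0 with and without it, limma voom 3.58.1, RLE factors, library totals, no filter, filterByExpr, other limits for a call, a prior count of 0.5, and each bear left out. Leaving out the winter library of bear 1509 was added after the data were seen. The fits were tested on simulated data. The genes and lists were chosen with earlier results of these data known. All 10 genes are described. Of each list of the pathway, but not of the marker lists, the 2 highest and 2 lowest fold changes among called genes are named, others having been added after their values were seen (SPIRE1, PARL, VDAC1, MYO19). COX4I1, UQCRC2, MICOS13, MYH2 and MYH7 were not analysed here, and PLD6 did not pass the filter.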

Additional observations from a re-analysis of the deposited data

Results flagged for a closer look

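In 28 groups of 6 libraries (10 genes and 4 ratios in each season), a library was looked at where its gap to the nearest other took up more of the group's range than Dixon's 95% critical value allows for 6 values. Chance passes that limit in about 1 in 20 groups, and 2 groups did. MIEF2 in the winter library of bear 1509 was at 3.42 log2 CPM, against 4.67 to 4.93 in the other winter libraries. MFN1 in the winter library of bear 1511 was at 6.35 log2 CPM, against 6.71 to 6.80 in the others.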

How the results depend on the processing

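Of 150 pairs of a gene and an alternative, 128 kept their direction and their side of the threshold, 12 lost a call, 9 gained one and 1 turned, YME1L1 with library totals (−0.029, not called in either). DNM1L, OMA1 and MIEF2 kept their calls at an adjusted p below 0.05 in all 15 alternatives, and MFN2 and FIS1 did not. The number of genes called higher was 2 in DESeq2 with and without the replicate block, in limma voom, with RLE factors and with filterByExpr, and 1 to 2 with a bear or the winter library of bear 1509 left out. The number called lower was 2 with no filter, where more genes were tested, 2 by the limits of the paper for a differentially expressed gene, and 2 to 4 with a bear left out. With the replicate block it was 3, the call of MFN2 being lost, and among the pathway lists SPG7 and MYO19 were gained. Mitochondrial transport genes called lower numbered 1 without bears 1305, 1317, 1511 or 1512 and by the stricter limits, and 1 was called higher without bear 1509, in limma voom and in edgeR and DESeq2 with the replicate block. Partners of fusion called lower numbered 4 with library totals. Except for the stricter limits, the cause was not tested. The ratios kept their signs with a prior count of 0.5, with library totals and without each bear, where 5 bears cannot give a p under the threshold. Library totals moved the median of all genes to −0.081. Counts as low as 100 reads (OMA1) and 193 (MIEF2) limit the precision of those genes, and p-values rest on 6 bears. The main fit, with season as its only term, does not use the pairing of libraries by bear.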
